A study of Homo sapiens with 6 samples.

Results

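Expression of the HLA class II antigen presentation genes was described in WM164 cells, a human melanoma cell line that carries BRAFV600E in every sample. The 10 genes, out of 60504 in the table, were taken by symbol: the chains HLA-DRA, HLA-DRB1, HLA-DPA1, HLA-DPB1, HLA-DQA1 and HLA-DQB1, the peptide exchange chains HLA-DMA and HLA-DMB, the invariant chain CD74 and the transactivator CIITA. The study introduced HDAC8, a class I histone deacetylase, to ask how it reshapes gene expression in melanoma cells. RNA-seq was compared between 3 libraries from cells with an empty expression vector (EV) and 3 from cells with an HDAC8 expression vector. Per the methods of the study, plasmids were transfected with Lipofectamine and cells were kept in hygromycin, and whether a line was a clone or a pool was not given. The labels number biological replicates 1 to 3 in each group but name no separate cultures, so that p-values measure the spread between these samples, which may be technical.

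Class II molecules are pairs of an alpha and a beta chain (DR, DP or DQ) that show peptides from the endosomal pathway to CD4+ T cells. CD74 chaperones the chains out of the endoplasmic reticulum and fills their groove, cathepsins trim it to a short fragment, and HLA-DM (HLA-DMA with HLA-DMB) exchanges that fragment for peptide. CIITA binds no DNA itself and is recruited to the X and Y boxes of class II promoters by the RFX complex, CREB1 and NF-Y. Dendritic cells, macrophages and B cells express class II constitutively, and other cells, melanoma cells among them, can express it after interferon-gamma.

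Total expected counts ran from 34741083 to 42041462 per library. A count of 0 allows up to 3 counts, and this floor was 2.57 to 3.27 normalized counts per library, where a normalized count is the expected count divided by the DESeq2 size factor of its library. Mitochondrially encoded transcripts made up 9.66% to 12.8% of EV libraries and 4.46% to 7.94% of HDAC8 libraries. The transcript of the vector's own gene, HDAC8, stood at 384, 404 and 479 normalized counts in EV 1 to 3 and at 485, 446 and 474 in the libraries labelled HDAC8 (log2 fold change 0.15, 95% interval -0.41 to 0.70, DESeq2 adjusted p = 0.856). A rise of the HDAC8 transcript was therefore not detected. The study probed HDAC8 protein by immunoblot in cells given the empty or the HDAC8 construct, and protein is not measured by these counts. Whether reads of the construct would be counted on the HDAC8 gene is not given in the sources used here, and in what follows HDAC8 libraries are those labelled so. SOX10, a transcription factor of the melanocyte lineage, stood at 13659, 18068 and 13633 normalized counts in EV 1 to 3. In HDAC8 1 to 3 it stood at 9686, 13104 and 13394, each below every EV library. HDAC8 1 stood apart from HDAC8 2 and 3 by more than those differed from each other, and the class II calls are given with and without it.

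Class II transcripts were rare in these cells, and HLA-DPA1 and CD74 were called lower in the HDAC8 libraries. The 8 HLA chains together gave 211, 265 and 197 normalized counts in the EV libraries against 4.28, 33.8 and 25.0 in the HDAC8 libraries, a ratio of 10.7 between the group means (224 ± 36.0 and 21.0 ± 15.2, SD, n = 3 each). Every EV library lay above every HDAC8 library in this sum, which is a description with no test. The 6 DR, DP and DQ chains alone summed to 131 ± 5.34 in EV and 9.49 ± 13.6 in HDAC8. In bulk RNA, fewer cells with a transcript and less of it per cell cannot be told apart.

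All genes were fitted together in DESeq2, and a call needed an adjusted p under 0.05 with a log2 fold change of 0.58 or more in either direction. Of the 10 genes, 7 had the total count of at least 10 needed for a test and 6 received an adjusted p. Of these 6, HLA-DPA1 and CD74 were called lower (background: 5.44% of genes with an adjusted p) and 0 were called higher (background: 5.57%). At an unadjusted p under 0.05, 5 of the 7 were lower (background: 9.68% of all genes tested) and 0 higher (background: 9.75%). The quasi-likelihood test of edgeR called the same 2 genes lower (background: 3.99%) and 0 higher (background: 4.13%). These shares over all genes are the background for the counts of the lists below as well. Without HDAC8 1, HLA-DPA1 and CD74 were called as well (DESeq2 adjusted p = 4.63e-05 and 0.00814). Values of the 2 groups did not overlap for 4 of the 7, each lower in HDAC8, against 24% of all tested genes in either direction. HLA-DPA1 and HLA-DQA1 had counts in EV libraries only and so passed the count filter through the group where they were high, which makes these counts a description. The median log2 fold change of the 7 was -2.93, or -2.64 with both of those genes set to their bound, beside -1.18e-04 for all genes tested.

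**Figure D1:**
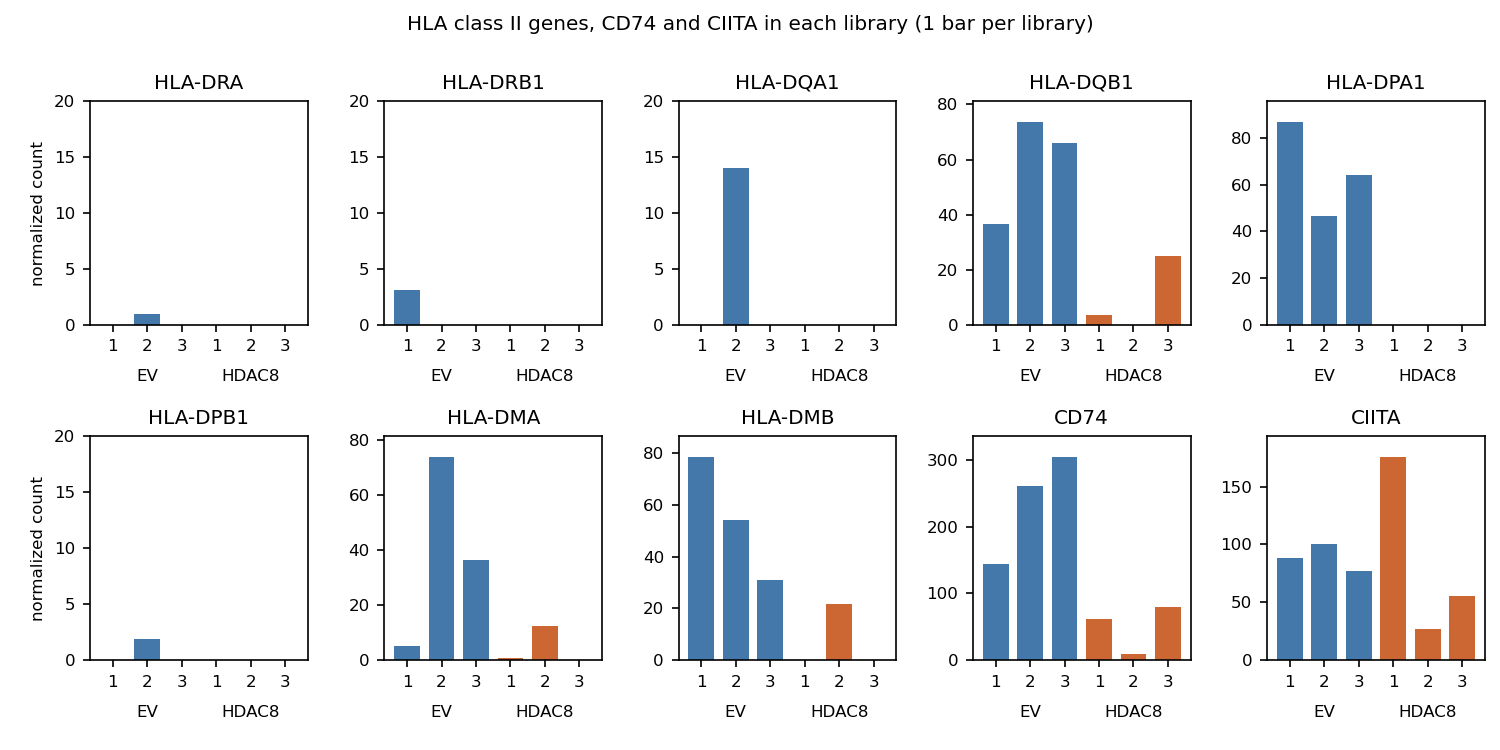
Normalized counts (y axis, scale set per gene) of the 10 genes in each library, with EV libraries 1 to 3 in blue and HDAC8 libraries 1 to 3 in orange, 1 bar per library. HLA-DPA1 has bars in the EV libraries alone, CD74 is lower in all 3 HDAC8 libraries, and CIITA has its highest and its lowest bar within the HDAC8 group.

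HLA-DPA1, the alpha chain of HLA-DP (chromosome 6, 33064569 to 33080775 in GENCODE release 44 on GRCh38), was the clearest case. It had 83, 50 and 65 expected counts in EV 1 to 3, or 87.03, 46.7 and 64.0 normalized, and none in any HDAC8 library. Set against the floor of 3 counts per library, its level was at least 22.2-fold lower in HDAC8 (DESeq2 adjusted p = 3.43e-06). Its partner HLA-DPB1, which overlaps it on the opposite strand, had 2 counts in EV 2 and none elsewhere. The files do not say whether counting used strand, so reads from the stretch that these 2 genes share cannot be assigned with certainty.

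The HLA-DQ chains were likewise unequal. HLA-DQB1 gave 36.7, 73.8 and 66.0 normalized counts in EV and 3.42, 0 and 25.0 in HDAC8. The groups did not overlap and the means differed 6.20-fold, but the HDAC8 libraries spread widely and the gene missed the threshold (log2 fold change -2.64, SE 1.25, DESeq2 adjusted p = 0.165). The alpha chain HLA-DQA1 was seen in EV 2 alone, with 15 counts, and received no adjusted p. HLA-DRA had 1 count (EV 2) and HLA-DRB1 had 3 (EV 1), and neither was tested. HLA-DR transcripts, the most abundant of the classical class II products in antigen-presenting cells, thus did not exceed the floor in any library at this depth. HLA genes differ between people and the reads were aligned to a reference transcriptome, and what mismatches to the alleles of WM164 do to these counts was not tested.

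The HLA-DM chains, neighbours on chromosome 6, fell short of the threshold as well. HLA-DMB gave 78.6, 54.2 and 30.8 normalized counts in EV and 0, 21.5 and 0 in HDAC8 (log2 fold change -2.93, SE 1.46, DESeq2 adjusted p = 0.198). The groups did not overlap, and HDAC8 2 held every HLA-DMB count of its group. In EV 3, a readthrough gene that spans HLA-DMB and HLA-DMA had 16.7 expected counts, and reads may be shared between it and these genes. HLA-DMA gave 5.24, 73.8 and 36.4 in EV and 0.855, 12.3 and 0 in HDAC8 (log2 fold change -3.14, SE 1.57, DESeq2 adjusted p = 0.196). EV 1 lay below HDAC8 2, so these groups overlapped. Without HDAC8 2, both genes were called (DESeq2 adjusted p = 2.33e-04 for HLA-DMB and 0.0189 for HLA-DMA), whereas HLA-DQB1 was called without HDAC8 3 (adjusted p = 0.00604). Each of these fits left out the HDAC8 library with most of its group's counts of the gene. With other libraries left out, the DESeq2 adjusted p reached 0.575 for HLA-DMB, 0.685 for HLA-DMA and 0.437 for HLA-DQB1.

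CD74, the invariant chain (chromosome 5, 150401637 to 150412969), had the most counts of the 10 genes. Its normalized counts were 144, 261 and 304 in EV and 61.6, 9.22 and 79.5 in HDAC8. Every HDAC8 library lay below every EV library, with means of 236 ± 83.1 and 50.1 ± 36.5 (SD, n = 3 each), a log2 fold change of -2.24 (SE 0.67) and a DESeq2 adjusted p of 0.00968. The call did not survive leaving out EV 2 (adjusted p = 0.0845) or EV 3 (adjusted p = 0.124), the EV libraries with the most CD74, and the log2 fold change stayed between -2.73 and -1.74 over the 6 fits that each lacked 1 library.

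No difference was detected for CIITA, the transactivator of the other 9 genes (chromosome 16, 10866222 to 10943021). Its normalized counts were 88.4, 99.96 and 76.6 in EV and 176, 26.8 and 55.4 in HDAC8. The EV libraries lay within the range of the HDAC8 libraries, and the log2 fold change was -0.03 (95% interval -1.49 to 1.42, DESeq2 adjusted p = 0.9904), which leaves a fall to 0.356-fold or a rise to 2.68-fold within the interval. HDAC8 1 had the most CIITA of any library and the lowest sum of the 8 HLA chains, 4.28 normalized counts from 5 expected counts. The sum of all 10 genes, CIITA included, was the highest of its group in HDAC8 1 (242, against 69.8 and 160 in HDAC8 2 and 3). HDAC8 2 had the least CIITA and the least CD74 of any library (26.8 and 9.22). Without HDAC8 1 the log2 fold change of CIITA was -1.11, and without HDAC8 2 it was 0.40. DEXI, on the opposite strand of the CIITA locus, overlaps it, and its reads cannot be told from those of CIITA without strand.

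Compared per kb of annotated exon, the levels in EV ran in the order CD74 (52.2 ± 18.4 normalized counts per kb, SD, n = 3), HLA-DMA (15.3 ± 13.6), HLA-DQB1 (12.02 ± 3.995), HLA-DMB (11.8 ± 5.19), HLA-DPA1 (11.5 ± 3.52) and CIITA (3.92 ± 0.517). The 4 chains from HLA-DMA to HLA-DPA1 differed among themselves by less than the largest of their SDs, that of HLA-DMA. The remaining 4 genes were at most 0.678. The class I genes HLA-B, HLA-C and B2M were far above these, whereas NLRC5 (39.7) and PSMB9 (50.5) of the class I list lay below CD74. Per kb, HLA-B stood 69.4-fold, HLA-C 284-fold and B2M 342-fold above HLA-DPA1 in EV. Lengths are the union of all annotated exons, which lowers the per-kb level of a gene with many isoforms such as CIITA.

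**Figure D2:**
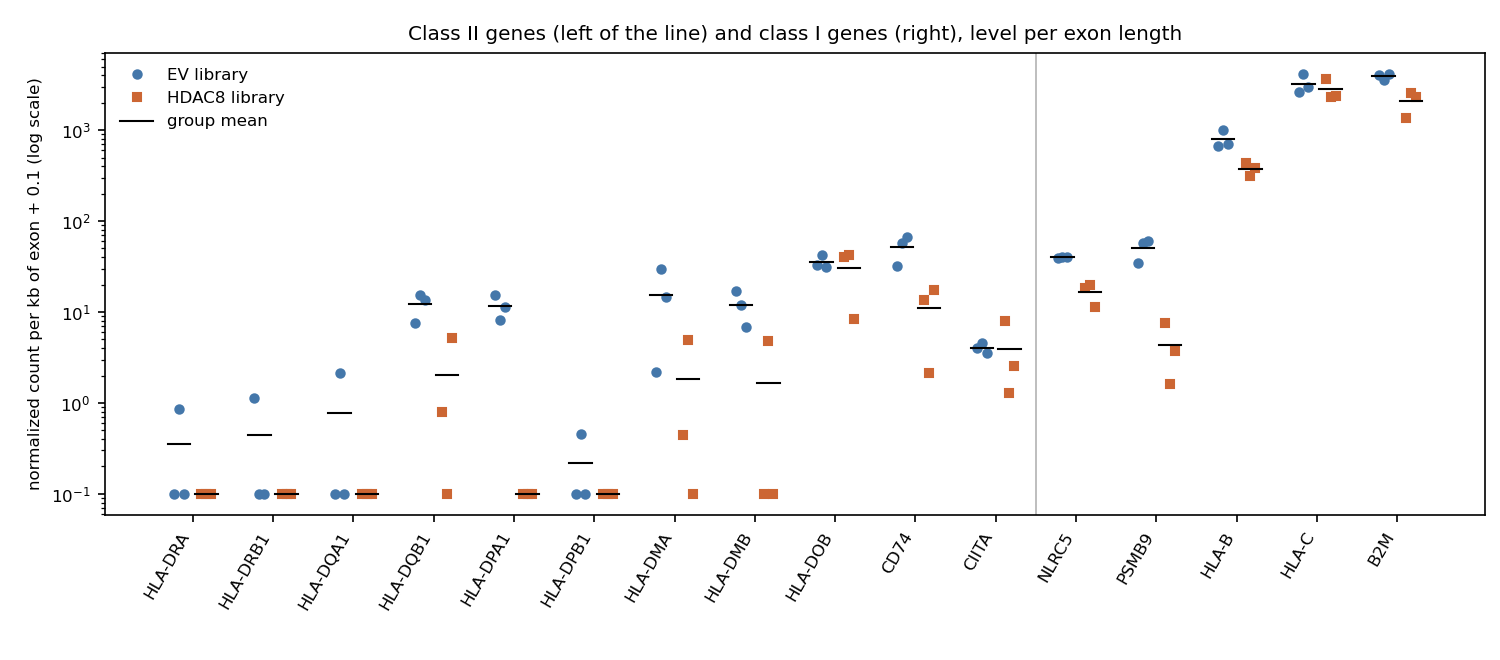
Normalized counts per kb of exon, plus 0.1 so that 0 can be drawn, on a log axis, with 1 point per EV (circle) or HDAC8 (square) library and bars at the group means. HLA-DPA1 falls to the bottom of the axis in every HDAC8 library, and HLA-B, HLA-C and B2M lie above every class II gene.

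Promoter windows are shown so that the letters of the X and Y boxes can be set beside the counts of the genes behind them. The table of RefSeq promoters (GRCh38.p14) held 8 of the 10 genes, and no window for HLA-DRA or CIITA. As X letters, the 13 letters that the windows of HLA-DMA, HLA-DMB, HLA-DQB1 and HLA-DRB1 shared best were taken, CNAGNNACNGATG with N where these 4 windows differed, a choice made after the windows had been read. These letters and CCAAT, the core of the Y box, which do not overlap, were searched on both strands from 250 bases before to 50 after each start. The X letters lay in those 4 of the 8 genes by construction, in none of the other 4, and in 0.142% of all 35116 windows. CCAAT lay in 7 of the 8 and in 34.6% of all windows. Both together were found in 0.0626% of windows. The 250 bases before the start are given 5′ to 3′ on the gene's strand, all minus, with X letters and CCAAT, or its reverse ATTGG, in capitals. They are HLA-DQB1 at chr6:32666658-32666907, HLA-DMA at chr6:32953098-32953347, HLA-DMB at chr6:32941029-32941278, HLA-DRB1 at chr6:32589849-32590098 and CD74 at chr5:150412911-150413160.
HLA-DQB1: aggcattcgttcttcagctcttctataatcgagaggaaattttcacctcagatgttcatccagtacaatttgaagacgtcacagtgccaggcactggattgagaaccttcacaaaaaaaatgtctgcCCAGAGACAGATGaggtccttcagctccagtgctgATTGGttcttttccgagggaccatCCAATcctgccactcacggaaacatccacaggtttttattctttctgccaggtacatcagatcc
HLA-DMA: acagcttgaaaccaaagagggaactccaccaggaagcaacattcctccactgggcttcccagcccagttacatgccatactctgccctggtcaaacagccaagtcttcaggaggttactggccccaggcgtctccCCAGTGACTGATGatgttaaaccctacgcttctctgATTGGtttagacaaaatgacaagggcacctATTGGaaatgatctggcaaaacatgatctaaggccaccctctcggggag
HLA-DMB: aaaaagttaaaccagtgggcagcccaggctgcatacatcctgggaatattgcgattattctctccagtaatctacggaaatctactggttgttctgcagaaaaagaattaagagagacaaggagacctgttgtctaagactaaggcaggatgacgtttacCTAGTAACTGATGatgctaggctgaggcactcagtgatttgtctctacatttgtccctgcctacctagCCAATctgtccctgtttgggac
HLA-DRB1: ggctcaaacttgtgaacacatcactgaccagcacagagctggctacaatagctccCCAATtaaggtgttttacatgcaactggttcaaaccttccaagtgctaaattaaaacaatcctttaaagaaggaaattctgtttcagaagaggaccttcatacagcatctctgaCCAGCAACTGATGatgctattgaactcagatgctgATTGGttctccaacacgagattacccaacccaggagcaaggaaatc
CD74: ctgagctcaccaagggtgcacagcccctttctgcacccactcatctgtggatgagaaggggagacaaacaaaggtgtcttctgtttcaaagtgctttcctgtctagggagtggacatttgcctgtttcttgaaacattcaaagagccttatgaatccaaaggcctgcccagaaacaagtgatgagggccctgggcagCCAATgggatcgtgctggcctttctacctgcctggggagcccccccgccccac

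The X letters were followed by the nearer CCAAT or ATTGG after 22 bases in HLA-DQB1 and HLA-DRB1, 23 in HLA-DMA and 55 in HLA-DMB. HLA-DRB1, at or under the floor in every library, and HLA-DQB1, with counts in every EV library, both held the X letters by construction. The spacing to the nearer CCAAT or ATTGG was the same in both. CD74 held CCAAT alone. Neither of the 2 windows of HLA-DPA1 held either set of letters, which says only that they are not in these windows. These matches are descriptions of reference sequence and no binding was measured here.

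Among the factors that bind these boxes, RFX5, the DNA-binding subunit of the RFX complex, fell. It gave 1667, 1746 and 1979 normalized counts in EV and 1096, 1100 and 787 in HDAC8 (log2 fold change -0.85, SE 0.21, DESeq2 adjusted p = 8.55e-04), with no overlap. RFX5 kept its call in every alternative fit. The subunit RFXAP gave 307, 205 and 365 in EV and 161, 181 and 163 in HDAC8, also without overlap, but missed the threshold (log2 fold change -0.80, DESeq2 adjusted p = 0.201), and RFXANK was at -0.22 (adjusted p = 0.801). Of the 7 factors on this list, which adds NFYA, NFYB, NFYC and CREB1, 1 was called lower and 0 higher by DESeq2 and by edgeR, 2 and 0 at an unadjusted p under 0.05, and the median log2 fold change was -0.25.

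On the route from interferon-gamma to CIITA, 2 of 12 tested genes were called lower, and IFNG itself had no count in any library. IRF2, which binds the interferon-responsive CIITA promoter together with IRF1, gave 664, 688 and 647 normalized counts in EV and 398, 316 and 402 in HDAC8 (log2 fold change -0.84, SE 0.27, DESeq2 adjusted p = 0.0181). JAK2, a kinase of the interferon-gamma receptor, gave 2007, 1471 and 1455 in EV and 951, 1159 and 1159 in HDAC8 (log2 fold change -0.59, SE 0.21, DESeq2 adjusted p = 0.0428). For both genes the groups did not overlap, yet JAK2 lost its call whichever library was left out (adjusted p from 0.0569 to 0.342) and IRF2 lost it without any library but HDAC8 1 (0.0538 to 0.105). The log2 fold changes of IFNGR1 and JAK1, a receptor chain and a kinase of the route, were 0.27 and -0.09 (DESeq2 adjusted p = 0.499 and 0.816). IRF1 ran from 307 to 416 in EV and from 134 to 610 in HDAC8, highest in HDAC8 1 as CIITA was. None of the 12 was called higher by DESeq2 or by edgeR (0 in each), and edgeR called 2 lower. At an unadjusted p under 0.05, 3 were lower and 0 higher.

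Of 12 cofactors of CIITA-driven transcription and regulators of chromatin, DESeq2 called 0 in either direction, with 1 higher and 1 lower at an unadjusted p under 0.05 and a median log2 fold change of -0.06. The acetyltransferases CREBBP and EP300 were at log2 fold changes of -0.13 and -0.05 (DESeq2 adjusted p = 0.674 and 0.907). KAT2B, an acetyltransferase that edgeR called lower and that is named for that reason after its values were seen, gave 1981, 1684 and 2101 normalized counts in EV and 699, 1680 and 1160 in HDAC8 (DESeq2 adjusted p = 0.0642).

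Endosomal processing genes moved in both directions. Of 19 tested, 3 were called lower and 1 higher, with a median log2 fold change of -0.10. At an unadjusted p under 0.05, 5 were lower and 4 higher. CTSS, the cathepsin that makes the last cuts in CD74, gave 91.2, 49.5 and 65.0 normalized counts in EV and 7.70, 0 and 5.44 in HDAC8 (log2 fold change -3.96, SE 1.11, DESeq2 adjusted p = 0.00520). All HDAC8 libraries lay below all EV libraries, and the call was lost without EV 1 (adjusted p = 0.120) or EV 3 (0.0514). CTSL, another cathepsin, gave 6263, 7358 and 6430 in EV and 5316, 3242 and 3006 in HDAC8 (log2 fold change -0.79, DESeq2 adjusted p = 0.00149). CST3, which inhibits cathepsins, fell with them (log2 fold change -0.66, DESeq2 adjusted p = 0.00777), a call lost without EV 2 (adjusted p = 0.106) and, through its fold change, without HDAC8 1. AP2M1, the AP-2 adaptor subunit that binds tyrosine-based sorting signals at the plasma membrane, rose from 4116, 5147 and 3660 to 9084, 7523 and 7031 (log2 fold change 0.87, DESeq2 adjusted p = 8.19e-06). IFI30, the reductase that opens disulfide bonds of antigens, was at -0.21 (DESeq2 adjusted p = 0.802).

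Genes that act on class II at the surface gave 2 rises and 0 falls among 8 tested (at an unadjusted p under 0.05, 2 and 2, and in edgeR 2 and 0). CD9, a tetraspanin that associates with class II, gave 137, 93.4 and 66.0 normalized counts in EV and 1188, 1602 and 1472 in HDAC8 (log2 fold change 3.85, SE 0.30, DESeq2 adjusted p = 8.59e-36). MARCH8, a ubiquitin ligase that can send class II and other surface proteins to lysosomes, gave 104, 134 and 129 in EV and 315, 561 and 439 in HDAC8 (log2 fold change 1.84, SE 0.38, DESeq2 adjusted p = 3.62e-05). Both had no overlap between the groups and kept their calls in every alternative fit. MARCH1, a ligase of the same family that is named after its values were seen, went the other way without a call. It gave 350, 270 and 343 in EV and 197, 185 and 250 in HDAC8, without overlap (log2 fold change -0.61, DESeq2 adjusted p = 0.322). The median of the 8 log2 fold changes was -0.17.

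Class I presentation was compared as the nearest other system. Of 19 tested genes, 4 were called lower (background: 5.44%) and 0 higher (background: 5.57%) by DESeq2. The same genes were called by edgeR (backgrounds: 3.99% and 4.13%). At an unadjusted p under 0.05, 9 were lower (background: 9.68%) and 0 higher (background: 9.75%). The median log2 fold change was -0.39. Called were NLRC5, HLA-B, B2M and PSMB9, the last with its values in the next paragraph. NLRC5, the class I counterpart of CIITA, gave 486, 492 and 498 normalized counts in EV and 226, 244 and 138 in HDAC8 (log2 fold change -1.28, SE 0.34, DESeq2 adjusted p = 0.00298). HLA-B gave 3110, 4651 and 3275 in EV and 2031, 1445 and 1759 in HDAC8 (log2 fold change -1.08, SE 0.20, DESeq2 adjusted p = 4.50e-06). B2M, the light chain of class I, fell by 0.92 on the log2 scale (DESeq2 adjusted p = 8.29e-05). HLA-C was not called (log2 fold change -0.21, DESeq2 adjusted p = 0.627).

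The class II region of chromosome 6 was mixed. Apart from the 10 genes, 12 class II loci were in the table, pseudogenes included, and HLA-DOB alone had counts, with 65.0, 83.0 and 62.1 normalized counts in EV and 79.4, 83.7 and 16.3 in HDAC8. HLA-DOB, a chain of the HLA-DM inhibitor HLA-DO, overlapped between the groups (log2 fold change -0.22, DESeq2 adjusted p = 0.935), and its partner HLA-DOA had none. A readthrough gene that spans HLA-DOB and TAP2 had 438 expected counts in HDAC8 1, and reads may be shared between it and HLA-DOB. Of 7 tested neighbours that are not class II genes, 1 fell (PSMB9, counted among the class I genes as well) and 1 rose. PSMB9, an immunoproteasome subunit encoded between HLA-DOB and HLA-DMB, gave 116, 190 and 200 in EV and 24.8, 5.12 and 11.98 in HDAC8 (log2 fold change -3.58, SE 0.70, DESeq2 adjusted p = 1.23e-05). COL11A2, a collagen gene beyond the HLA-DP genes, gave 453, 290 and 355 in EV and 2170, 1013 and 1067 in HDAC8 (log2 fold change 1.95, SE 0.31, DESeq2 adjusted p = 3.00e-08). BRD2, which lies beside HLA-DMA and encodes a bromodomain protein, was at 0.14 (DESeq2 adjusted p = 0.591).

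**Figure D3:**
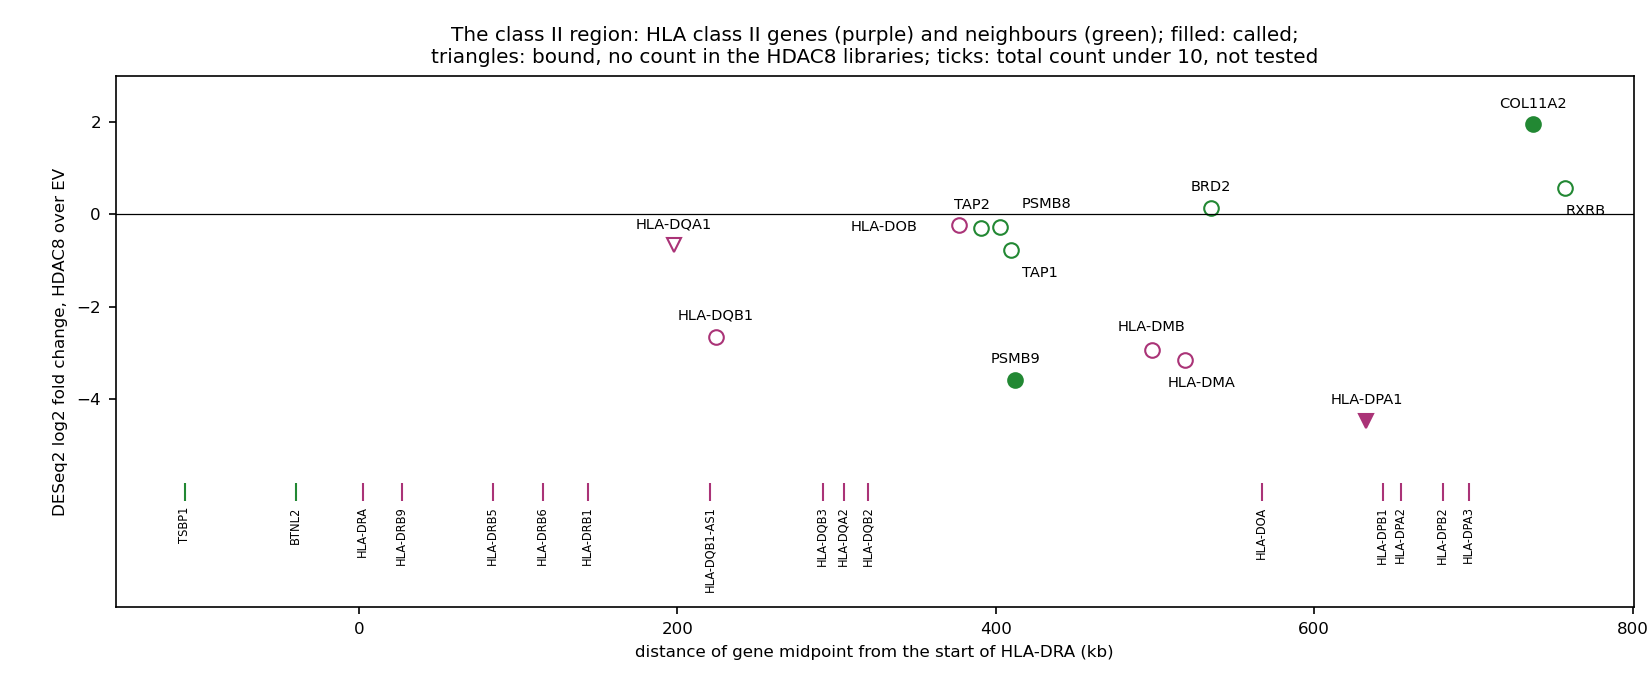
DESeq2 log2 fold changes, HDAC8 over EV (y axis), of class II genes (purple) and neighbours (green) by distance of the gene's midpoint from the start of HLA-DRA in kb (x axis), filled where called, with untested genes as ticks. Triangles mark the bounds of HLA-DPA1 and HLA-DQA1. PSMB9 lies among neighbours near 0, and COL11A2, the highest point, follows HLA-DPA1, the lowest.

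Markers of professional antigen-presenting cells were examined beside the class II values. Of 15 markers, 9 had any count, and MS4A1, CD1C, CLEC9A, CD86 and TYROBP had none in any library. PTPRC, which encodes the pan-leukocyte antigen CD45, had 3 counts in HDAC8 1 and none elsewhere. The summed list ran from 2964 to 3503 normalized counts in EV and from 579 to 665 in HDAC8. ITGAX, an integrin of dendritic cells and macrophages, made up most of it with 2862, 3417 and 2698 in EV and 514, 416 and 370 in HDAC8 (log2 fold change -2.79, DESeq2 adjusted p = 1.69e-40). The fall of the sum is that of ITGAX. Of 5 markers with an adjusted p, ITGAX alone was called lower (background: 5.44%) and 0 were called higher (background: 5.57%). The median log2 fold change of the 7 tested markers was 0.37. Of 8 melanoma markers, 5 were called lower (4 with limma-voom, and a background of 5.44% in DESeq2), and SOX10 was not (DESeq2 adjusted p = 0.211). The sum of the 8 ran from 244960 to 328761 in EV and from 137043 to 182218 in HDAC8. PMEL, one of those called, made up most of this sum in every library. The part of these markers in the class II result was not tested. HLA-DPA1 and CD74 were called in a fit without the mitochondrially encoded genes as well.

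The 5 genes whose log2(normalized count + 1) ran closest to that of the summed 10 genes over the 6 libraries, among 14448 genes with a mean of at least 50, were DOC2A (Pearson r = 0.9987), FHAD1 (0.9975), HTR7P1 (0.9973), DENND2D (0.9968) and ENO2 (0.9965). The 6 libraries form 2 groups of 3 and the genes were picked as the highest of many, so the values are a description. FHAD1 gave 188, 443 and 321 normalized counts in EV and 23.9, 0 and 11.98 in HDAC8. ENO2, the neuronal enolase, ran from 4421 to 4932 in EV and from 2146 to 3357 in HDAC8.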

How the data were processed

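RNA-seq of 3 EV and 3 HDAC8 libraries of WM164 was used, grouped and numbered as labelled. The labels give an Aurum kit for RNA extraction and the study's methods a Direct-zol kit. Per the labels and methods, the authors used Trimmomatic on paired-end reads, STAR for alignment to the transcriptome and RSEM for quantification. The deposited values are expected counts, not scaled between libraries, in which a read that fits several genes is shared between them. Genome build, annotation and strand-specific counting are not given in the sources used here. Every column of values mapped to a library.

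Rounded expected counts were analysed, and genes with a total of at least 10 were tested in DESeq2 1.42.0 by its Wald test, two-sided (R 4.3.3, Benjamini-Hochberg adjustment over all genes, no covariates), which gave 21021 of 26162 genes an adjusted p. Thresholds are those of the study's methods. The 10 genes and all lists were chosen with earlier results of these data known. Named were the 10 genes, other class II loci with a count, called genes and defining regulators of each list (the marker list of melanoma cells by counts, apart from SOX10 and PMEL), HDAC8, and the 5 genes closest to the summed class II genes. A fold against a group without counts was computed against the floor of 3 counts per library and is a bound. The floor covers counting error only, since without molecular identifiers 2 reads can come from 1 molecule. Alternatives were edgeR 4.0.16 (quasi-likelihood, TMM), limma-voom (limma 3.58.1), total-count or upper-quartile size factors, a minimum of 10 counts in every library or no minimum, no mitochondrially encoded genes, no fold minimum, a replicate block and each library left out. On simulated counts, each tool recovered few of the changed genes with low counts, and DESeq2 and edgeR made more false calls than their threshold allows, DESeq2 the most. Positions, lengths and overlaps came from GENCODE release 44 (GRCh38) by Ensembl identifier, promoters from RefSeq. MARCH8 and MARCH1 stand under these older symbols in the table. Of the list genes, 3 are not reported here by name. HLA-DRB3 and HLA-DRB4 were not analysed here. Between libraries of a group, chi-square divided by its degrees of freedom was above sampling noise. It was 39.0 to 47.3 within EV and 26.0 between HDAC8 2 and HDAC8 3, while HDAC8 1 stood apart from these with 153 and 102.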

Additional observations from a re-analysis of the deposited data

How the results depend on the processing

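HLA-DPA1 was called lower in every alternative that tested it. The number of class II genes called lower was 2, and it ranged from 1 (without EV 2 or EV 3) to 4 (without HDAC8 2) when 1 library was left out. It was 3 with limma-voom, which added HLA-DMB, and 0 with at least 10 counts in every library, where CIITA was the 1 gene left to test. None was called higher in any fit (0 in each). Deviations from the group means showed little correlation between samples of the same replicate number (-0.03, -0.07 and 0.04). With 3 libraries a group and HDAC8 1 apart from the others, this cannot exclude pairing, and the labels give only a number. With the replicate block, 4 were called lower, with HLA-DQB1 (DESeq2 adjusted p = 0.0456) and HLA-DMB (0.00628) added, and IRF2 (0.0660) and JAK2 (0.121) lost their calls. JAK2 also lost it with limma-voom (0.0793) and with size factors from total counts (0.0691). Over all genes, calls ranged from 877 to 1218 higher and from 746 (without EV 3) to 1378 lower when 1 library was left out. Signs turned for genes near 0. CIITA was at 0.0411 with size factors from total counts. Leaving out 1 library, log2 fold changes ran from -1.11 to 0.40 for CIITA, from -0.54 to 0.22 for HLA-DOB, from -0.54 to 0.0249 for RFXANK, from -1.05 to 0.22 for IRF1, from -0.16 to 0.0245 for JAK1 and from -0.135 to 0.0131 for EP300. The causes were not tested. Of the 578 values that these alternatives gave for 42 genes, 526 had the direction and the call of the value reported. With few counts per class II gene and 3 libraries a group, a fall such as that of HLA-DQB1 or HLA-DMA could not be told from the spread between libraries.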

Other observations

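Reads that fit several genes are shared between them, so counts of readthrough genes and of the class II loci they span are not separate. The readthrough gene that spans HLA-DOB and TAP2 (AL669918.1) had 0, 68.7 and 0 expected counts in EV 1 to 3. In HDAC8 1 to 3 it had 438, 27.6 and 34.6, most of them in HDAC8 1. The one that spans HLA-DMB and HLA-DMA (AL645941.2) had 16.7 in EV 3 and none elsewhere. DEXI, opposite CIITA, gave 198, 364 and 270 normalized counts in EV and 355, 373 and 159 in HDAC8 (DESeq2 adjusted p = 0.956).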
